A study of Mus musculus with 16 samples.

Results

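T cell clones that held cells in the lung and in the mesenteric lymph node (MLN) of the same mouse were followed from one organ to the other by their T cell receptors (TCR). Of 6319 deposited cell barcodes, 4714 had more than 500 UMIs (counted RNA molecules), more than 500 genes, less than 7% mitochondrial UMIs and at least 1 productive TCR alpha (TRA) and 1 productive TCR beta (TRB) chain. Cells of 1 mouse were placed in 1 clone when all their productive chains had the same V gene, J gene and CDR3 nucleotide sequence. Of 3927 clones, 126 had cells in both organs (105 in mouse 1 and 21 in mouse 2), and these are called shared clones. They held 382 of the 4714 cells. For comparison, 132 expanded clones had at least 2 cells in the lung and none in the MLN (lung-only), 279 had at least 2 cells in the MLN and none in the lung (MLN-only), and 3390 clones were single cells. Lung-only and MLN-only mean that no cell was sampled in the other organ. Some of these clones may have had cells there, which limits every comparison of them with shared clones.

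All groups came from 2 female 4get mice on the C57BL/6 background, which carry an IL-4eGFP reporter that makes cells transcribing the Il4 locus fluoresce. At 13 weeks of age the mice were infected subcutaneously with 500 third-stage larvae of the nematode Nippostrongylus brasiliensis, were given antibiotics in the drinking water, and were analysed at day 10. Both organs of each mouse gave CD4+IL-4eGFP+ cells by sorting, so every comparison is between infected animals and no uninfected group was part of it. Gene expression and TCR chains were read from the same cells by 10x 5′ sequencing, with 1 library per organ and mouse. Lungs were perfused, cut and digested with enzymes, whereas MLN were mashed without digestion, so that organ and dissociation cannot be told apart in any lung to MLN comparison. The lung libraries may also hold cells left in the vessels, since intravascular cells were not marked.

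Th2 cells are CD4 T cells that make interleukins of type 2 immunity and drive the response to worms in mucosal tissue. A naive T cell with one rearranged TCR divides in a draining lymph node after it meets antigen, and its daughters keep the same CDR3 sequences, so that the CDR3 works as an inherited tag. Some daughters enter B cell follicles as follicular helper cells, and others leave through the lymph and blood and enter tissue. N. brasiliensis larvae pass through the lung on their way to the small intestine, which the MLN drain.

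The sequences below are the CDR3 of the largest shared clone of each mouse and of 3 shared clones of mouse 1 that used the same 3 gene segments, TRAV13D-2, TRAJ22 and TRBV1. They are the tag by which a lung cell and an MLN cell were called 1 clone. Lower case marks bases that match the germline V segment from its start or the germline J segment to its end (GRCm38), and capitals mark the bases between them, which in TRB include the D segment. Clone numbers are names given here.
Clone 1248 TRA, TRAV21-DV12 and TRAJ48: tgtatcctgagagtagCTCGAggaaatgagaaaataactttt
Clone 1248 second TRA, TRAV6-7-DV9 and TRAJ34: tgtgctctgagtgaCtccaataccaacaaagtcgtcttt
Clone 1248 TRB, TRBV13-1 and TRBJ2-5: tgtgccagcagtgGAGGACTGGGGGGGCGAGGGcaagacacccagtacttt
Clone 3683 TRA, TRAV7-4 and TRAJ42: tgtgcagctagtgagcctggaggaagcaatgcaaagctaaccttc
Clone 3683 TRB, TRBV31 and TRBJ2-3: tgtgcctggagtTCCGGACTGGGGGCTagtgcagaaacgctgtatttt
Clone 576 TRA, TRAV13D-2 and TRAJ22: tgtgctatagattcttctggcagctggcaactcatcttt
Clone 576 TRB, TRBV1 and TRBJ1-4: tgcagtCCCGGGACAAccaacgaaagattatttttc
Clone 570 TRA, TRAV13D-2 and TRAJ22: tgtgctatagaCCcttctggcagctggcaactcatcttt
Clone 570 TRB, TRBV1 and TRBJ1-1: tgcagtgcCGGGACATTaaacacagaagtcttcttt
Clone 573 TRA, TRAV13D-2 and TRAJ22: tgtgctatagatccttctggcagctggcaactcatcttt
Clone 573 TRB, TRBV1 and TRBJ1-1: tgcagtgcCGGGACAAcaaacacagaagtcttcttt

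Clone 1248 of mouse 1 had 5 lung and 10 MLN cells, and its 20 bases between germline V and J in TRB compare with a median of 9 over the TRB chains of shared clones. Clone 2009, with 1 cell in each organ of mouse 1, carried the same TRB and the same TRAV6-7-DV9 chain without the TRAV21-DV12 chain. A clone here needed all its chains to match, so a chain that was not read in a cell would place it apart. Clone 3683 of mouse 2 had 7 lung and 2 MLN cells, with 15 such bases in TRB and none in TRA. Clones 576, 570 and 573 held 2, 2 and 1 lung cells and 6, 4 and 5 MLN cells. Their TRA chains were 39 bases long and differed from that of clone 576 at 2 bases in clone 570 and at 1 base in clone 573. Their TRB chains of 36 bases differed from that of clone 576 at 12 and 10 bases. Clone 576 used TRBJ1-4 and clones 570 and 573 used TRBJ1-1, so these TRB counts include differences between germline J segments. The same 3 segments were found in no expanded clone of 1 organ, in 6 single cells of mouse 1 and in 2 single cells of mouse 2. Over all 11 clones of this kind there were 5 different TRA and 9 different TRB nucleotide sequences. A further shared clone of mouse 1, with 1 cell per organ, had the TRB sequence of clone 573 beside a TRA of TRAV13D-2 and TRAJ34. The germline segments of this family lie at chr14:52942764-52943289 (TRAV13D-2), chr14:54197248-54197307 (TRAJ22) and chr6:40891229-40891885 (TRBV1), all on the plus strand of GRCm38. Near-identical copies of many TRAV segments exist in the mouse, so the copy that was assigned is uncertain.

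Across the 126 shared clones, 104 had 1 TRA and 1 TRB chain, 19 had 2 TRA chains with 1 TRB, and 3 had 2 TRB chains. The median number of bases between germline V and J was 3 in TRA and 9 in TRB, and 20 clones had a TRA chain with no such base. CDR3 length averaged 13.4 codons in TRA (SD 1.24, 122 chains) and 13.7 in TRB (SD 1.42, 107 chains) of the shared clones of mouse 1. In the lung-only clones of the same mouse the means were 13.4 and 13.8 codons, and in its MLN-only clones 13.4 and 13.6. The TRAV11 and TRAJ18 pair, which marks invariant natural killer T cells, was absent from shared, lung-only and MLN-only clones and present in 76 single-cell clones. The same receptor can arise more than once by chance rearrangement, and 2 clones were found in both mice, but neither of these was shared between the organs of a mouse.

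Most shared clones were small. There were 76 clones with 1 lung and 1 MLN cell, and 14 clones with at least 2 cells in each organ. In mouse 1, 13 clones had more lung cells, 27 had more MLN cells and 65 had as many in each. In mouse 2, 4 clones had more lung cells, none had more MLN cells and 17 had as many in each. These counts depend on how many cells each library held, which was 1082 and 416 in the lungs of mice 1 and 2 and 2462 and 754 in their MLN.

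**Figure D1:**
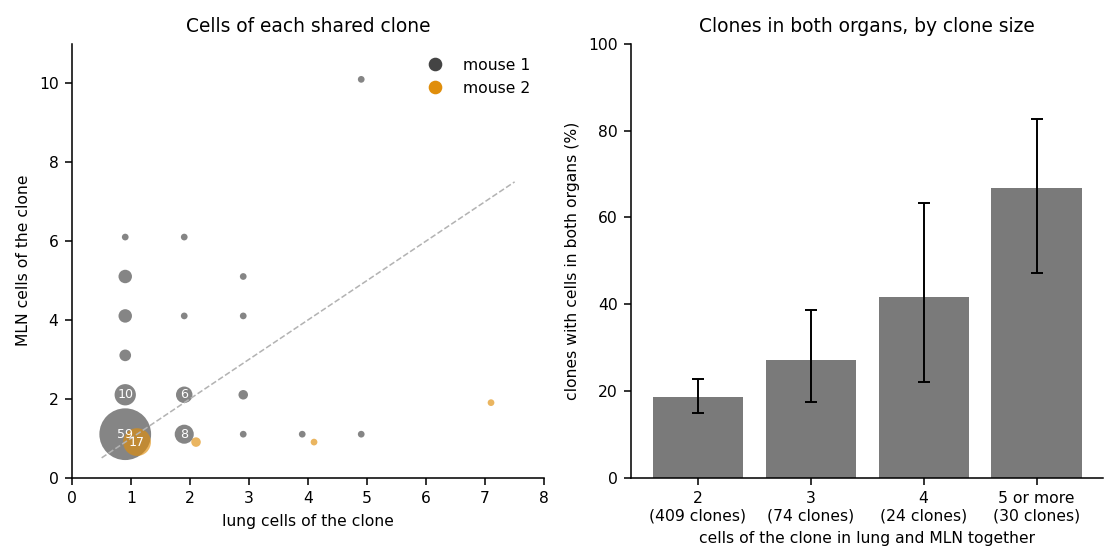
Left, number of lung cells (x axis) and MLN cells (y axis) of each of the 126 shared clones, with mouse 1 and mouse 2 set slightly apart, circle area by the number of clones (printed for the larger circles) and a dashed line where both counts are equal. Right, percent of expanded clones with cells in both organs (y axis) by the number of cells in the clone, both mice together, with 95% Clopper-Pearson intervals. Most points sit at 1 lung and 1 MLN cell, and the percent in both organs is 18.6% for clones of 2 cells and 66.7% for clones of 5 or more. Mouse 1 gave 28 of the 30 clones of 5 or more.

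In the lung, 13.1% of the cells of mouse 1 (142 of 1082, exact 95% Clopper-Pearson interval 11.2% to 15.3%) and 7.69% of those of mouse 2 (32 of 416, 5.32% to 10.7%) belonged to shared clones. In the MLN the shares were 7.56% in mouse 1 (186 of 2462, 6.54% to 8.67%) and 2.92% in mouse 2 (22 of 754, 1.84% to 4.38%). The lung libraries held fewer cells, and the same number of cells is a larger share of a smaller library. With 2 mice against 2, an exact permutation test cannot go below p = 0.33, so no test of these shares was made, and the intervals cover counting error only. Of clones with 2 cells, 18.6% were in both organs (76 of 409, 14.9% to 22.7%), of clones with 3 cells 27.0% (20 of 74, 17.4% to 38.6%), of clones with 4 cells 41.7% (10 of 24, 22.1% to 63.4%), and of clones with 5 or more 66.7% (20 of 30, 47.2% to 82.7%). These values pool both mice, and the intervals treat clones as independent. Mouse 1 gave 66 of the 74 clones with 3 cells, 23 of the 24 with 4 and 28 of the 30 with 5 or more. In mouse 2, 17 of 72 clones with 2 cells and 2 of 8 with 3 were in both organs. For larger clones of mouse 2 it was 0 of 1 with 4 cells and 2 of 2 with 5 or more. The rise with clone size thus rests on mouse 1. A clone of more sampled cells also had more chances to be sampled in both organs, and this was not corrected for. When clones were defined by TRB chains alone, the mean lung share was 14.4% in place of 10.4%.

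The UMIs of the shared clones were summed per organ and mouse, which gave 1269387 and 255931 in the lungs of mice 1 and 2 and 1150150 and 131741 in their MLN. In the same order, the sums of lung-only and MLN-only clones were 1927371, 322421, 3027940 and 407356. A cell of a shared clone had a median of 7669 and 5712 UMIs in the lungs and of 5146 and 4858 in the MLN. Levels are given in CPM, the UMIs of a gene scaled to one common total per sum, always with the lungs of mice 1 and 2 first and their MLN after. The sums of mouse 2 hold few cells, and every p-value rests on the spread between 2 mice. In a sum, fewer cells with a transcript and less transcript per cell cannot be told apart. Cd3e was at 852 to 1340 and Cd4 at 203 to 311 in the 4 sums. Of the CD8 markers, Cd8a had no UMI and Cd8b1 was at 5.51, 3.91, 8.69 and 0. The summed B cell markers were at 91.4 to 311, of which Ighm made up 89.8 to 304, and Ms4a1 was at 0. Summed myeloid markers were at 30.4 to 143, lung epithelial markers at 0 to 15.7 and red cell and platelet markers at 0. The myeloid value of 143 was in MLN 1, where Lyz2 was at 70.4, and MLN 2 had 30.4 with Lyz2 at 0. In MLN-only clones the myeloid sums were 69.0 and 95.7, with Lyz2 at 2.64 and 0. The 6 markers of mast cells, basophils and ILC2 summed to 9.45 and 54.7 in the lungs and to 0.869 and 0 in the MLN, with Fcer1a, Ms4a2 and Mcpt8 at 5, 1 and 1 UMIs in lung 2 and at 0 in the other 3 sums. Innate-like T cell markers summed to 0, 46.9, 8.69 and 0, and the lung 2 value was Fcer1g alone. In lung-only clones the mast cell, basophil and ILC2 markers summed to 51.4 and 3.1. The part of cells or RNA with these markers in the gene results, between organs or within 1 organ, was not tested. Of barcodes, 13 were kept in 2 of the 4 libraries, which involved 2 cells of shared clones, and no such pair carried the same clone.

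Lung and MLN cells of the same clones differed widely in what they transcribed. Of 7861 genes tested with edgeR's quasi-likelihood test (Benjamini-Hochberg adjusted p below 0.05), 580 differed, which is 7.38% of the genes. Higher in the lung cells were 394 genes (5.01%) and lower were 186 (2.37%), and 495 of the 580 differed by at least 2-fold. The direction was the same in both mice for 566 of them, but they were called on these same mice, so this adds no support. Left-out libraries moved this count, to 276 without lung 1 and to 158 without MLN 1. DESeq2 gave 268 of 7861 genes tested, and sums thinned to 130981 UMIs gave 236 of 2766. Clones of 2 cells alone, an alternative chosen after the data were seen, gave 380 of 5301. The number of genes tested changed with the setting, so these counts are not out of one total.

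Il4, the reporter locus itself, did not differ between organs beyond the spread, while other Th2 genes did. The Il4 gene, which encodes interleukin-4, was at 416.7, 531.4, 620.8 and 364.4, and the groups overlapped. Its log2 difference, lung minus MLN, was -0.05 (SE 0.22, n = 2 mice per group, adjusted p = 0.949). Taken clone by clone, 60 clones had the higher Il4 level in their lung cells, 61 in their MLN cells, and 5 had no UMI in either. Such clone counts, here and below, are descriptions, since clones of 1 mouse are not replicates. Mouse 1 gave 105 of the 126 clones, and 76 clones had 1 cell per organ. In those a higher level can mean detection in 1 cell, which also depends on the UMIs of that cell. An Il4 UMI was seen in 77.5%, 81.2%, 76.3% and 72.7% of the cells of shared clones, and in 40.8%, 56.2%, 51.1% and 54.5% after each cell was thinned to 2000 UMIs.

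Gata3 (chr2:9857078-9890034, minus strand) encodes the transcription factor that sets Th2 identity. It was at 868.9, 875.2, 344.3 and 402.3, so both lung values lay above both MLN values. The log2 difference was 1.40 (SE 0.17, adjusted p = 2.43e-05), and 101 clones had the higher level in the lung cells against 21 in the MLN cells. Il1rl1 (chr1:40429570-40465415, plus strand), the receptor for the alarmin IL-33, was at 382.1, 207.1, 23.5 and 53.1, a log2 difference of 3.65 (SE 0.46, adjusted p = 4.92e-05). This call rested on MLN 1, without which the adjusted p was 0.0626. An Il1rl1 UMI was found in 104 of 142 and 20 of 32 lung cells, and in 15 of 186 and 5 of 22 MLN cells. After thinning these shares were 40.8% and 25.0% in the lung and 4.35% and 13.6% in the MLN. Of 17 tested Th2 identity genes and alarmin receptors, 8 were higher in the lung cells and none was lower, with a median log2 difference of 0.79 beside 0.00 over all genes. They included Bhlhe40, a transcription factor of cytokine-producing T cells (log2 difference 3.58), Il7r, the receptor for the survival cytokine IL-7 (2.77), and Pparg, a nuclear receptor (2.14, adjusted p = 0.00368, and 0.408 without MLN 1 and 0.572 without lung 1).

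Several effector products were higher in the lung cells. Areg (chr5:91139599-91148432, plus strand), which encodes the epithelial growth factor amphiregulin, was at 1262.8, 414.2, 27.8 and 0, a log2 difference of 5.34 (SE 0.67, adjusted p = 4.81e-05). It was higher in the lung cells of 61 clones and in the MLN cells of 2, and 63 clones had no Areg UMI. Calca, which encodes the peptide CGRP, was at 221.4 and 89.9 in the lung sums and had no UMI in either MLN sum, at least 85.2-fold higher in the lung (adjusted p = 0.000188) when 3 UMIs over both MLN sums are taken as the floor. Without MLN 1 the Calca call was lost, at an adjusted p of 0.140. Cxcl2, a neutrophil chemokine, had no MLN UMI either, but came from 10 clones (at least 47.1-fold, adjusted p = 0.00298, and 0.324 without MLN 1 and 0.379 without lung 1). Fgl2, a secreted prothrombinase and regulator, was at 239.5, 78.1, 10.4 and 22.8 (log2 difference 4.09, adjusted p = 5.15e-05, and 0.107 without MLN 1).

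Il13, a cytokine of the lung and gut response to worms, did not pass the test in shared clones. It was at 156.8, 70.3, 62.6 and 0, a log2 difference of 1.46 (SE 0.59, adjusted p = 0.176), and the adjusted p was 0.0177 with mouse as a replicate block. An Il13 UMI was found in 30 of 142 and 7 of 32 lung cells and in 8 of 186 and 0 of 22 MLN cells, where 0 of 22 allows a share of cells with a UMI of up to 13.6% by 3 counts. Among the 14 clones with at least 2 cells in each organ, 7 had an Il13 UMI in their lung cells and 2 in their MLN cells, and the level was higher in the lung cells of 6 and in the MLN cells of 2. The highest MLN level among them, 2484.0 in clone 2379, came from 26 UMIs in 1 cell. Il5, which recruits eosinophils, was at 18.9, 113.3, 4.3 and 0 (log2 difference 3.60, SE 1.08, adjusted p = 0.0563) and was detected in only 9 clones, 8 with the higher level in the lung cells. An Il5 UMI was found in 8 of 142 and 1 of 32 lung cells and in 1 of 186 and 0 of 22 MLN cells. The values of lung 2 and MLN 1 thus came from 1 cell each. Il10, an inhibitory cytokine, was too low to be tested, at 9.5, 7.8, 5.2 and 0. Of the 13 tested cytokines and effector proteins, 6 were higher in the lung cells (Calca, Cxcl2, Areg, Fgl2, Csf1 and Tnfsf11) and none was lower. Over all genes tested, 5.01% were higher and 2.37% lower. This list and the other gene lists were chosen with earlier results of these data known, so counts of their members are not independent support.

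**Figure D2:**
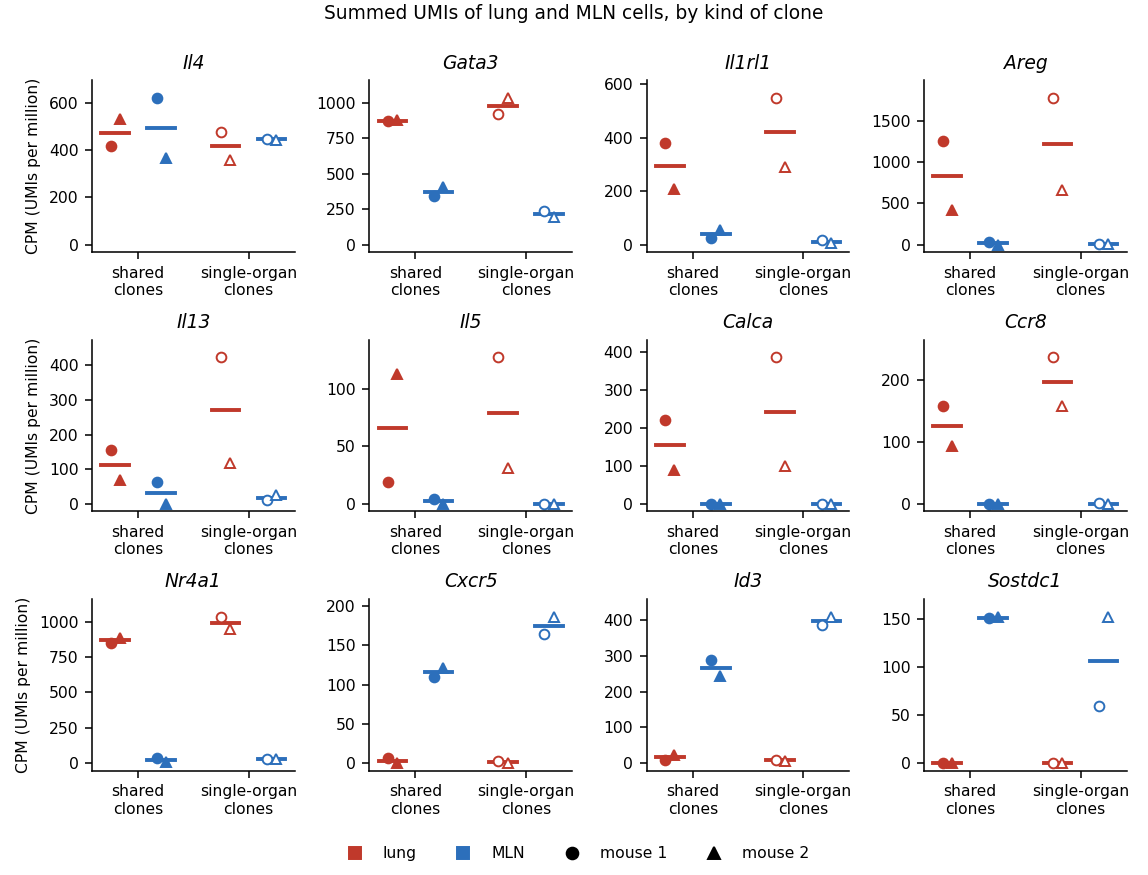
CPM (y axis) of 12 genes in the summed lung (red) and MLN (blue) cells of shared clones (filled) and of single-organ expanded clones (open), with 1 point per mouse (circle, mouse 1; triangle, mouse 2) and bars at the mean. Il4 overlaps between organs (364.4 to 620.8 in shared clones), while Gata3, Il1rl1, Areg and Nr4a1 sit higher in both lung sums and Cxcr5, Id3 and Sostdc1 higher in both MLN sums.

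Receptors that place cells in tissue or node also differed within clones. Ccr8, a chemokine receptor of Th2 cells in tissue, was at 158.3 and 93.8 in the lung sums and at 0 in both MLN sums, at least 63.0-fold higher (adjusted p = 1.88e-06). It was detected in the lung cells of 54 clones and in the MLN cells of none, where 0 of 186 MLN cells of mouse 1 allows a share of cells with a UMI of up to 1.61% by 3 counts. Ccr2 (log2 difference 2.88) and Cxcr6 (1.50), chemokine receptors of tissue T cells, and the adhesion receptor Cd44 (1.59, adjusted p = 0.000231, and 0.158 without MLN 1) were higher in the lung as well. Among 16 tested genes for tissue homing and adhesion, 6 were higher in the lung cells and 1 was lower. Cxcr5 (chr9:44511787-44561877, minus strand), which draws T cells to B cell follicles, was at 6.3, 0, 109.6 and 121.5, a log2 difference of -4.25 (SE 0.43, adjusted p = 4.32e-06).

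Receptors of node exit and gut homing did not pass the test. Ccr7, which holds T cells in nodes, was at 13.4, 19.5, 39.1 and 22.8 (log2 difference -1.12, SE 0.44, adjusted p = 0.162). S1pr1, the receptor for exit from nodes, was at 36.2, 89.9, 60.9 and 136.6 (-0.45, SE 0.45, adjusted p = 0.667). Ccr9, the receptor for gut homing, was at 130.0, 101.6, 136.5 and 113.9 with overlapping groups (0.04, SE 0.37, adjusted p = 0.988), and 29 clones had the higher level in the lung cells against 26 in the MLN cells. Among genes for node homing and exit, Il7r was higher in the lung cells and Cd27 and Cxcr5 were lower.

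The MLN cells of shared clones carried the higher levels of some genes listed as follicular helper and as naive or stem-like. Of 14 tested follicular helper genes, 8 were lower in the lung cells and 1, the costimulator Icos, was higher, with a median log2 difference of -2.55 beside 0.00 over all genes. Over all genes tested, 2.37% were lower and 5.01% higher. The list was chosen with earlier results of these data known. Sh2d1a, the adaptor SAP that helper cells need to help B cells, was at 52.8, 58.6, 457.3 and 478.2 (log2 difference -2.94, SE 0.20, adjusted p = 7.73e-08). Tox2, a nuclear factor of follicular helper cells, differed by -3.16 and Pou2af1, a coactivator of octamer-binding factors, by -3.61 (adjusted p = 0.0319, from 28 UMIs in MLN 1 and none in MLN 2, where the lung had 1). Bcl6, Il21, Pdcd1, Ascl2 and Il6st did not pass the test. Sostdc1, a secreted antagonist of growth factors, was at 150.4 and 151.8 in the MLN sums and had no UMI in the lung, at least 76.6-fold lower there (adjusted p = 1.31e-05). These UMIs came from 23 of 186 MLN cells of mouse 1 and from 1 of 22 of mouse 2, in 15 clones.

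Id3, an inhibitor of E protein transcription factors, was at 9.5, 23.4, 289.5 and 242.9 (log2 difference -4.33, SE 0.30, adjusted p = 7.31e-08), and 67 clones had the higher level in the MLN cells against 6 in the lung cells. Ephx1 (-4.76), an epoxide hydrolase, Smtn (-4.55), an actin-binding protein, and Rflnb (-3.18), a filamin-binding protein, were lower in the lung cells too. With Id3, Tcf7, Lef1 and Actn1 they were the 7 lower genes of 10 tested that were listed as naive or stem-like memory, where none was higher. Over all genes tested, 2.37% were lower. Satb1, Foxp1 and Foxo1 of the list did not pass the test. This list too was chosen with earlier results of these data known. This count is therefore not independent support for a naive or stem-like state. Other genes lower in lung cells were Izumo1r, the folate receptor family member FR4 (-2.60, 104 clones higher in the MLN cells against 17), the signalling receptor Slamf6 (-2.36), Dennd2d (-3.04) and Nsg2 (-2.98). For the genes of this paragraph given with a difference, both lung values lay below both MLN values. They were picked for their difference in these same values, so the lack of overlap adds no support.

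Several early response genes, which TCR signalling and the handling of tissue can both induce, were higher in the lung cells. Nr4a1, an orphan nuclear receptor induced by TCR signalling, was at 851.6, 883.1, 38.3 and 7.6 (log2 difference 4.80, SE 0.26, adjusted p = 5.57e-09). It was higher in the lung cells of 112 clones and in the MLN cells of 4. In each of the 14 clones with at least 2 cells in both organs, Nr4a1 was detected in the lung cells, at 280.5 to 2148.2, and had no UMI in the MLN cells. The phosphatases Dusp1 (4.77) and Dusp5 (4.75) and the NF-kappa-B inhibitor Tnfaip3 (4.30) were higher in the lung cells of 117, 112 and 116 clones. Nr4a2 (4.83), the G protein regulator Rgs2 (5.23), the acid-sensing receptor Gpr65 (5.07), Dennd4a (4.55) and Ctla2a (6.39), whose reads may be split with its near-identical copy Ctla2b, were higher too, and Fosl2, a subunit of the transcription factor AP-1, was at least 84.0-fold higher with no UMI in the MLN sums.

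Of 16 tested TCR-induced early response genes, 9 were higher in the lung cells and 1, Egr2, was lower, with a median log2 difference of 1.37. Of 20 genes known to respond to tissue dissociation and stress, 16 were higher in the lung cells and none was lower, with a median of 2.12. Their summed level was 14900 and 16300 in the lung and 4970 and 3800 in the MLN. They included Fos (4.09), Atf3 (no MLN UMI, at least 12.3-fold higher, adjusted p = 0.00149, and 0.283 without MLN 1) and Ier3, with 55 lung UMIs and 3 MLN UMIs (ratio per UMI 15.4, exact 95% counting interval 5 to 77, adjusted p = 0.0355, and 0.483 without MLN 1 and 0.0544 without MLN 2). Among 15 tested feedback and inhibitory genes 9 were higher and 2 were lower in the lung cells. Enzymatic digestion was used for the lung alone, and its part in these differences was not tested.

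**Figure D3:**
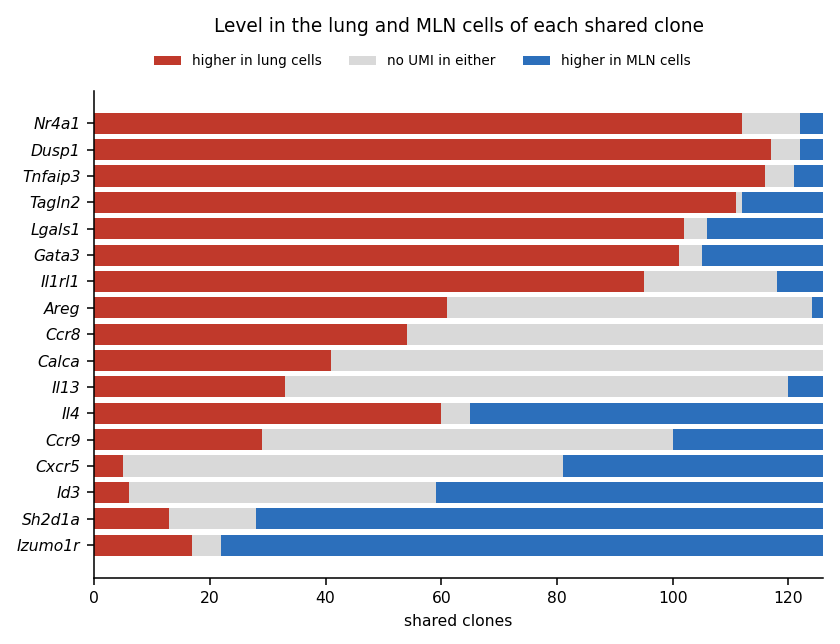
Number of the 126 shared clones (x axis) whose lung cells (red) or MLN cells (blue) had the higher level of each of 17 genes (y axis), with clones without a UMI of the gene in grey. Nr4a1, Dusp1 and Tnfaip3 were higher in the lung cells of 112 to 117 clones, Il4 split 60 to 61, and Sh2d1a and Izumo1r were higher in the MLN cells of 98 and 104 clones. Mouse 1 gave 105 of the 126 clones, and clones of 1 mouse are not replicates.

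Of 19 tested S100, annexin and actin-linked genes, 11 were higher in the lung cells and none was lower. S100a4, a calcium-binding protein of migrating cells, was at 202.5, 222.7, 28.7 and 106.3 (log2 difference 2.51, adjusted p = 0.000108, and 0.114 without MLN 1), and Lgals3, which encodes galectin-3, was at 36.2, 105.5, 7.8 and 0 (3.13, adjusted p = 0.00214, and 0.127 without MLN 1). Anxa1, an annexin, had 62 lung UMIs and 1 MLN UMI (ratio per UMI 52.1, exact interval 9.01 to 2090, adjusted p = 0.000568, and 0.203 without MLN 1). Of 17 tested interferon-response genes, 7 were lower in the lung cells and none was higher, with a median of -1.34. Irf7, a transcription factor of this response, was at 27.6, 50.8, 115.6 and 182.2 (-1.84, adjusted p = 0.00582, and 0.237 without lung 1), and Rtp4, Isg15 and Ifi47 differed by -3.12, -1.74 and -1.72. These 3 calls ended without MLN 1, at adjusted p of 0.234, 0.613 and 0.0929, and Rtp4 and Isg15 also without lung 1 (0.192 and 0.0669) and Isg15 without lung 2 (0.0538).

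Of 20 tested cell cycle genes 3 were higher in the lung cells, Top2a (1.33), Mki67 (0.92) and Stmn1 (0.89), and none was lower, beside the 5.01% of all genes that were higher. The Mki67 and Stmn1 calls ended when either MLN library or lung 2 was left out, at adjusted p of 0.413, 0.0665 and 0.0845 for Mki67 and of 0.158, 0.140 and 0.0892 for Stmn1. Of 17 tested glycolysis and hypoxia genes, 2 were higher (Hk2 and Hif1a) and 4 were lower (Pkm, Ddit4, Tpi1 and Pgam1) in the lung cells. Hk2 is a hexokinase, the first enzyme of glycolysis, and Hif1a a transcription factor of low oxygen. The calls of Hk2, Hif1a, Tpi1 and Pgam1 ended without MLN 1 (adjusted p of 0.228, 0.0558, 0.802 and 0.999) and without lung 1 (0.225, 0.111, 0.329 and 0.187), and those of Hk2 and Hif1a also without MLN 2 (0.0521 and 0.0631) and that of Hk2 without lung 2 (0.0608). None of 9 tested type 1 and cytotoxic genes passed the test in shared clones, where their median log2 difference was 1.40 beside 0.00 over all genes. In lung-only against MLN-only clones 7 were higher and 1 was lower, with a median of 3.09. The sums of those clones hold more cells, so the counts are not compared. None of the 9 passed the interaction test described below.

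The same lung to MLN comparison was made for expanded clones seen in 1 organ only. Lung-only against MLN-only clones gave 1193 differing genes, 15.2% of the 7861 tested, with 750 higher (9.54%) and 443 lower (5.64%) in the lung cells. DESeq2 gave 361 higher and 133 lower, and the total was 474 without lung 1 and 552 without MLN 1. These sums hold more cells, and the median SE of a log2 difference over all genes was 0.32 in them and 0.38 in shared clones, so the counts are not compared. All 580 genes of the shared clones had the same direction in the single-organ clones, and 532 of them passed the test there as well. Both kinds of clone came from the same libraries and mice and were fitted together, so this agreement is not independent support. The median size of the log2 difference over the 580 genes, which were chosen in the shared clones, was 1.76 in shared and 1.88 in single-organ clones, and 240 genes had the smaller difference in single-organ clones.

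**Figure D4:**
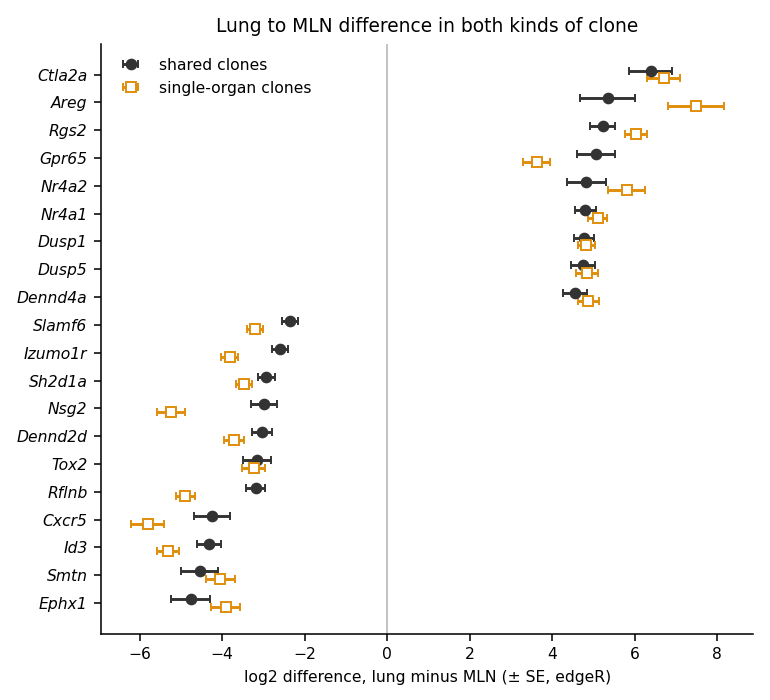
Log2 difference, lung minus MLN, with its SE (x axis) in shared clones (filled circles) and in single-organ expanded clones (open squares), for those of the 12 genes with the largest differences in each direction that had more than 3 UMIs in each organ. The sign was the same in both kinds of clone for every gene plotted, with Areg at 5.34 and 7.48 and Nr4a1 at 4.80 and 5.10.

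Side by side, Nr4a1 differed by 4.80 in shared and 5.10 in single-organ clones, Dusp1 by 4.77 and 4.83, Tox2 by -3.16 and -3.23, and Fos by 4.09 and 3.80. For some Th2 genes the values lay further apart in single-organ clones. Gata3 was at 921.5, 1032.8, 233.5 and 191.5 in lung-only and MLN-only clones, a log2 difference of 2.28 (SE 0.16) beside 1.40 in shared clones. Il13 was at 423.9, 117.9, 9.9 and 24.5 there, a difference of 4.75 (adjusted p = 2.22e-05) beside 1.46. Of 13 cytokines and effector proteins, 10 were higher and 1 lower in single-organ clones, and for the S100, annexin and actin-linked list the counts were 16 and 1 of 19. For dissociation and stress genes they were 17 and 0 of 20, beside 16 and 0 in shared clones. These counts also depend on the smaller SE of the single-organ sums and are not compared.

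The difference between these differences was tested directly as an interaction. By edgeR 0 of 7861 genes (0%) passed, with a smallest adjusted p of 0.0705, 218 genes had an unadjusted p below 0.05, and DESeq2 called 4. Without lung 2, 12 genes passed. With mouse as a replicate block 8 genes passed, all with a lower lung minus MLN value in shared clones (Lgals1, Vim, Capg, Tagln2, Il6, Areg, Il13 and Fabp5). The 5 genes with the smallest p without the block were Capg (interaction -2.32, SE 0.38, adjusted p = 0.0705), Vim (-1.62, SE 0.27, 0.0705), Tagln2 (-1.31, SE 0.24, 0.106), Fabp5 (-1.94, SE 0.37, 0.129) and Il2ra (-3.28, SE 0.64, 0.137). The median SE of an interaction was 0.50.

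Shared and MLN-only clones were next compared inside the MLN, where organ and handling were the same. A clone called MLN-only may have had lung cells that were not sampled. Of 7861 genes, 5 (0.0636%) passed, all higher in the MLN cells of shared clones. Vim (chr2:13573927-13582826, plus strand), the intermediate filament vimentin, was at 480.8 and 303.6 in the MLN cells of shared clones and at 146.3 and 162.0 in MLN-only clones (log2 difference 1.45, SE 0.21, n = 2 mice per group, adjusted p = 0.0204). Lgals1 (chr15:78926725-78930465, plus strand), galectin-1, was at 975.5 and 797.0 beside 488.8 and 321.6 (1.09, SE 0.19, adjusted p = 0.0413). Tagln2, the actin-binding transgelin-2, was at 403.4 and 432.7 beside 206.7 and 157.1 (1.11, SE 0.18, adjusted p = 0.0301). Anxa2, annexin A2, was at 187.8 and 151.8 beside 58.5 and 56.5 (1.60, SE 0.28, adjusted p = 0.0413), and Fabp5, a fatty acid binding protein, at 77.4 and 68.3 beside 25.1 and 12.3 (1.72, SE 0.28, adjusted p = 0.0301). For all 5 genes both values of shared clones lay above both values of MLN-only clones. The genes were chosen by the test on these same values, so the lack of overlap adds no support.

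In the lung sums, none of the same 5 genes passed the test between shared and lung-only clones. Vim was at 1384.9 and 1996.6 in shared and at 1687.8 and 2062.5 in lung-only clones (log2 difference -0.17, SE 0.18), and Lgals1 at 2235.7 and 2168.6 beside 2508.1 and 2409.9 (-0.17, SE 0.17). The MLN values of Vim, Lgals1 and Tagln2 in shared clones thus lay between those of MLN-only clones and of lung cells. Without MLN 1 none of the 5 passed, with an adjusted p of 0.859 for Vim and 0.210 for Lgals1, and the log2 difference of Vim was 0.87 without it. Without MLN 2 only 1 of the 5 passed. When cells with a UMI of Mki67 or Top2a were left out, Vim was the 1 gene that passed, and Lgals1, Tagln2, Anxa2 and Fabp5 differed by 0.78, 0.82, 1.13 and 1.41. None of the 5 passed with clones of 2 cells alone or with clones defined by TRB alone, and Vim differed by 1.27 among clones of 2 cells (adjusted p = 0.0729). With 1 cell per clone and organ only Vim of the 5 passed, and Lgals1 and Tagln2 differed by 0.77 and 0.60. With each sum thinned to the smallest sum only Lgals1 passed. The number of genes that passed was 11 without lung 1 and 12 without lung 2. Over 18 alternatives Vim passed in 14, Lgals1 in 11, Tagln2 and Anxa2 in 10 and Fabp5 in 9. Some of these settings hardly bear on this comparison. The novelty filter removed no cell, and leaving out a lung library kept every MLN sum. Passes in those settings add no support. Mki67, a marker of dividing cells, was at 82.6 and 91.1 beside 29.7 and 36.8 in the MLN (1.40, SE 0.27, adjusted p = 0.0756), and summed cell cycle genes were at 2740 and 3050 beside 1930 and 2360.

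**Figure D5:**
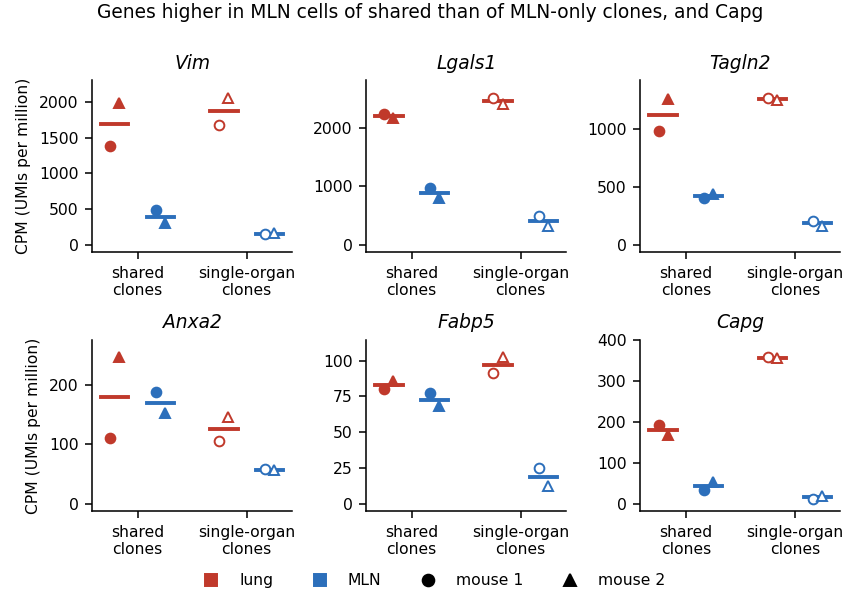
CPM (y axis) of the 5 genes that were higher in MLN cells (blue) of shared (filled) than of MLN-only clones (open), and of Capg, beside lung cells (red), with 1 point per mouse (circle, mouse 1; triangle, mouse 2) and bars at the mean. In the MLN, Vim sits at 480.8 and 303.6 in shared clones and at 146.3 and 162.0 in MLN-only clones, and the lung values sit at 1384.9 and 1996.6 in shared and at 1687.8 and 2062.5 in lung-only clones.

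Inside the lung, shared and lung-only clones were not separated by the fit without mouse as a block. By edgeR 0 of 7861 genes (0%) passed, with a smallest adjusted p of 0.175, while 302 had an unadjusted p below 0.05 and DESeq2 called 0. Without lung 2, 20 genes passed, and without lung 1, 3 genes. With mouse as a replicate block 9 genes passed, 4 higher (Gzmb, St3gal6, Gzma and Ifit1) and 5 lower (Ramp1, Igfbp7, Fgl2, Ccl5 and Capg) in shared clones. The 5 genes with the smallest p without the block were all lower in shared clones. Ramp1, the subunit that makes a CGRP receptor, was at 21.3 and 3.9 in shared and at 120.9 and 46.5 in lung-only clones (log2 difference -2.45, SE 0.45, adjusted p = 0.175). Igfbp7, which binds insulin-like growth factors, was at 54.4 and 15.6 beside 166.0 and 117.9 (-1.74, SE 0.32, 0.175), and Capg, an actin-capping protein, at 192.2 and 168.0 beside 359.0 and 356.7 (-0.96, SE 0.19, 0.183). The chemokine Ccl5 (-3.98) and the metallothionein Mt1 (-2.99) rested on 3 and 7 UMIs in shared clones. Il13 was at 156.8 and 70.3 beside 423.9 and 117.9 (-1.24, SE 0.46, adjusted p = 1).

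Whole-transcriptome position was described by the 20 nearest cells of each cell in 15 principal components of 2000 variable genes, over all 4714 cells, of which 68.2% were from the MLN. Lung cells of shared clones had 2.68% (mouse 1) and 5.00% (mouse 2) of their neighbours from the MLN, beside 1.11% and 2.86% for lung-only clones. MLN cells of shared clones had 3.52% and 3.41% of their neighbours from the lung, beside 0.62% and 1.25% for MLN-only clones. For cells whose clone had no other cell, the values were 3.32% and 7.85% in the lung and 0.73% and 1.14% in the MLN. Few cells carried these means, since most neighbours came from the other organ for 3 of 142 and 1 of 32 lung cells and for 4 of 186 and 0 of 22 MLN cells of shared clones. With 1 cell drawn per clone, the mean difference in the lung was -1.23 percentage points in place of 1.85. It was 1.26 in mouse 1 and -3.71 in mouse 2, so the order held in mouse 1 alone. In the MLN the difference was 3.14 in place of 2.53 percentage points with 1 cell per clone. Without cells with a UMI of Mki67 or Top2a it was 1.07 there.

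For each cell, the distance to its own clone in the other organ was ranked among the distances to all other shared clones of that mouse there. The median percent of other clones that lay nearer was 45.7% for lung and 47.6% for MLN cells of mouse 1, and 40.0% and 37.5% in mouse 2, where 50% would be the middle of the ranking. Over 4 settings these medians ran from 27.5% to 48.6%. Clones of several cells gave more cells to these medians, and their means tend to lie nearer to any cell. Values below 50% can thus arise without likeness within a clone, and this was not corrected for. Ranked within 1 organ, the value was 19.2% for the 61 lung cells and 17.8% for the 116 MLN cells of mouse 1 that had a clone partner there. In mouse 2 the value was 40.0% for 15 lung cells, and only 2 MLN cells had a partner. Here the mean of a cell's partners was set against other clones, many of which held 1 cell in that organ. A mean of several cells tends to lie nearer than a single cell. The values within and between organs are therefore not compared. These percentages describe cells that share a library and have no test.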

How the data were processed

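Per the labels and the study's methods, the authors ran Cell Ranger (versions 2.1.1 and 3.0.1, mm10) on 2 combined sequencing runs per library and deposited raw UMI counts per gene and barcode, with TCR contigs and their UMI counts. No normalized values were used. Here, cells were filtered and clones built as stated above, 269 TCR genes were left out, and counts were summed over cells per library and kind of clone, since cells of 1 mouse are not replicates. The 8 sums were fitted together with edgeR 4.0.16 in R 4.3.3 (filterByExpr, TMM, quasi-likelihood test, no block), with Benjamini-Hochberg adjustment over 7861 genes at 0.05. Without TCR genes the sums held 130981 to 3011698 UMIs, and genes at a few UMIs in mouse 2 have wide errors.

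Replicate numbers name the same mouse in both organs. Deviations of same-numbered lung and MLN sums correlated at 0.05 for shared and 0.01 for single-organ clones over 7861 genes. The correlation between shared and single-organ sums of the same library was not measured. The main fit treated these sums as independent. A fit with mouse as replicate block was an alternative. Other alternatives used DESeq2 1.42.0, other filters or clone definitions, or all libraries but one. Named genes were, in the shared clones, the 12 with the largest differences in each direction that passed the test with a mean of at least 50 CPM and 1 sign in both mice, up to 4 passing members of each gene list, genes always given, and the leading genes of the other contrasts. The clones, gene lists and this rule were chosen with earlier results of these data known. Neighbours were computed with scikit-learn 1.9.0. No doublet caller was run, and 7 cells of shared clones had more than 1 TRB or more than 2 TRA chains. The sort left no cell type without the genes discussed, so no level of free RNA was taken from another type. A run of medLN and MLN without TCR contigs was not used here. Tests were checked on simulated data. Gene positions are from GENCODE vM21 (GRCm38). Germline segments were matched over at least 5 bases, allowing 12 bases past an annotated end. Some genes covered by this rule are not reported here.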

Additional observations from a re-analysis of the deposited data

How the results depend on the processing

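The number of shared clones was 109 with stricter contigs to 146 with TRB alone. The number of genes tested ran from 2766 with thinned sums to 14069 without a count filter, so the counts below are not out of one total. Genes different between organs in shared clones numbered 580, with 268 by DESeq2, 236 with thinned sums, 380 with clones of 2 cells and 158 to 654 with 1 library left out. In single-organ clones, 1193 became 494 by DESeq2, 648 with 1 cell per clone and organ, 338 with thinned sums, and 474 to 1383 with 1 library left out. Interaction calls went from 0 to 8 with the replicate block, 4 by DESeq2, 2 with its size factors, 40 without a count filter, 2 without cells with extra chains, 1 each with 1 cell per clone, TRB alone, strict contigs, no cycling cells and clones of 2 cells, and 0 to 12 with 1 library left out. Shared against lung-only calls in the lung went from 0 to 9 with the replicate block, 57 without a filter, 2 each without cycling cells and with clones of 2 cells, 1 each with 1 cell per clone, TRB alone and strict contigs, and 0 to 20 with 1 library left out. In the MLN, 5 genes passed, beside 3 by DESeq2, 32 without a filter, 2 with 1 cell per clone, with clones of 2 cells and with the 4 sums alone, 1 with thinned sums, TRB alone and no cycling cells, and 0 to 12 with 1 library left out. Pairing by mouse (replicate block) gave 671, 1335 and 6 calls in the other 3 comparisons. The share of lung cells was 14.4% with TRB alone. The neighbour difference in the lung was 2.51 with 50 neighbours, 5.02 with thinned cells and -1.23 with 1 cell per clone, and in the MLN 3.66 with 10 components, 3.71 with 50 neighbours, 1.07 without cycling cells, 3.36 thinned and 3.14 with 1 cell per clone. With 1 library left out, log2 differences of Pgam1 ran from -1.36 to 0.028 and of Tpi1 from -1.41 to 0.342, both reversed without MLN 1. Of 63 named genes called, 27 lost the call in at least 1 alternative. Without MLN 1, 22 lost it with the direction kept, beside Pgam1 and Tpi1. Where a library is left out its group has 1 sum, which is assumed to vary like the others. The causes were not tested. Depth limits genes at a few UMIs in mouse 2, whose shared clones hold 54 cells.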
